A study of Mus musculus with 34 samples.

Results

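The 10 immediate early genes (IEGs) *Fos*, *Fosb*, *Jun*, *Junb*, *Jund*, *Egr1*, *Egr2*, *Ier2*, *Dusp1* and *Zfp36* were followed through single-cell transcriptomes of sorted mouse ear skin mast cells (MCs) and of sorted mural cells. They were taken by name from the 25853 genes of the count tables, and transcripts of all 10 were found in every mouse and in the mural cells. The values of WT and Tln1∆MC mice overlapped for all 10, and none passed the test between the genotypes. Within each mouse most of them varied together from cell to cell. On the mean over mice *Jund*, found in nearly every MC, and *Egr2*, found in few, followed the others least. The range of *Egr2* over mice overlapped those of other IEGs.

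IEGs are transcribed within minutes of a stimulus from factors already present in the cell, without new protein synthesis, and their transcripts are short-lived. *Fos*, *Fosb*, *Jun*, *Junb* and *Jund* encode the partners of the dimeric AP-1 transcription factor, *Egr1* and *Egr2* encode zinc finger transcription factors, and *Ier2* encodes a small nuclear protein. *Dusp1* encodes a phosphatase that switches off MAP kinases, and *Zfp36* encodes tristetraprolin, which binds AU-rich elements and speeds the decay of cytokine transcripts. In MCs, AP-1 acts on cytokine genes after activation through the IgE receptor or KIT. IEGs are also known to be induced by enzymatic dissociation of tissue. In the GENCODE M21 annotation of GRCm38, *Fos* lies on chromosome 12, *Jun* on 4, *Egr2* on 10 and *Dusp1* on 17. *Fosb* (chr7:19302696-19310051) and *Zfp36* (chr7:28376784-28380253) share chromosome 7, and *Junb* (chr8:84974484-84978718), *Ier2* (chr8:84661331-84662852) and *Jund* (chr8:70698949-70700616) share chromosome 8.

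The MCs came from 7-week-old male mice that received no treatment. Both genotypes carried Mcpt5-cre, active in connective tissue-type MCs, and a Cre-dependent YFP reporter in the *Rosa26* locus. Tln1∆MC mice (3 mice) were also homozygous for a floxed *Tln1* gene, which encodes the integrin activator talin-1, and WT mice (3 mice) were littermates with intact *Tln1*. CD45+Lin−YFP+ cells were sorted one per well after the ears had been minced and digested for 75 min at 37 °C. The mural cells were sorted as CD45−GFP+ cells from mice with a *Myh11*-driven GFP transgene, which marks smooth muscle cells. The number of mice behind them is not given, so their 4 libraries were treated as 1 sample and no test was made with them. The cells of 1 library share a pool of amplified RNA, and cells were never counted as replicates.

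After filtering on more than 1000 transcripts, 2477 MCs (904 WT and 1573 Tln1∆MC) and 330 Myh11-GFP cells were kept. Of all kept barcodes 17, among them 8 of the Myh11-GFP libraries, lay outside the set of barcodes in use. The paper kept fewer MCs at its limit of more than 1000 transcripts. MC libraries held between 58 and 97 cells, and the median MC had 5441 transcripts, of which 3301 lay outside gene models named Gm. The Gm share of a library ranged from 5.42% to 66.8%, and all levels below are therefore transcripts per 10000 outside Gm models. *Tln1* was at 4.51, 5.92 and 6.71 in WT mice 1, 2 and 3 and at 5.57, 4.33 and 3.63 in Tln1∆MC mice 1, 2 and 3, without passing the test (log2 fold change −0.34 ± 0.23 SE, limma adjusted p = 0.88). The tags lie at transcript 3′ ends and the deleted part of *Tln1* is not given in the sources used here, so this level does not check the labels. MC markers summed to 322 or more per 10000 in every MC library and to at most 0.265 in the Myh11-GFP libraries, which held 101 to 132 of smooth muscle, at least 119 of pericyte and 142 to 340 of fibroblast markers. Library 3 of WT mouse 2 (macrophage markers 92.2, keratinocyte markers 72.8) and library 8 of Tln1∆MC mouse 3 (keratinocyte markers 134) stood apart from a median of 1.96 for macrophage and 1.45 for keratinocyte markers. In the latter library 1 barcode held 44.8% of all transcripts. Fibroblast markers were highest in library 1 of WT mouse 2 (434) and library 2 of WT mouse 3 (201), beside a median of 1.22 over MC libraries.

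To show the start regions of 3 IEGs whose levels followed each other closely in MCs (below), the 200 bases before the RefSeq transcript start of *Fos*, *Dusp1* and *Zfp36* are given for GRCm38.p6, 5′ to 3′ on the strand of the gene. Capitals mark the CRE (TGACGTCA), its 5-base core (TGACG), the TATA box (TATAAA) and the CArG box.
*Fos*, chr12:85473690-85473889, plus strand: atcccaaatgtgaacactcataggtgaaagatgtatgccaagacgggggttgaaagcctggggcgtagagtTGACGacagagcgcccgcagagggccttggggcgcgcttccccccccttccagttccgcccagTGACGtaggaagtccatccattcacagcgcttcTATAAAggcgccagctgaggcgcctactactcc
*Dusp1*, chr17:26508473-26508672, minus strand: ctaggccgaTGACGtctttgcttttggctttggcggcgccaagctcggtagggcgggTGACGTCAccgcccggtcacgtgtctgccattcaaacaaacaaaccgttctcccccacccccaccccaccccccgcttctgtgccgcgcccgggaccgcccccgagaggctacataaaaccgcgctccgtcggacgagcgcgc
*Zfp36*, chr7:28379229-28379428, minus strand: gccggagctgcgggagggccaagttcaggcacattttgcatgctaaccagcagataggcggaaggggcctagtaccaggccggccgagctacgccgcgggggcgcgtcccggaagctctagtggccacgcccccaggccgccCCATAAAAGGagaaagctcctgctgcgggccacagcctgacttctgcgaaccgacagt
The *Fos* stretch held 2 CRE cores, 129 to 125 and 66 to 62 bases before the start, and a TATA box 33 to 28 bases before it. The *Dusp1* stretch held the whole CRE 143 to 136 bases before the start and a further core 191 to 187 bases before it. The *Zfp36* stretch held a CArG box, the sequence bound by SRF, 58 to 49 bases before the start. Among 32851 RefSeq start regions of 300 bases (250 before to 50 after the start), searched on both strands, 1.79% held the CRE, 20.8% the core, which also lies within the CRE, 13.6% TATAAA and 1.63% the CArG box. No such region was found for *Ier2* or *Egr1*. These matches describe letters only.

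*Fos* and *Fosb* were compared first, as the partners of JUN proteins in AP-1. *Fos* was at 22.0, 9.67 and 15.6 per 10000 in WT mice 1, 2 and 3 and at 18.4, 20.6 and 23.0 in Tln1∆MC mice 1, 2 and 3. WT mouse 2 was the lowest and WT mouse 1 lay among the Tln1∆MC mice. The means were 15.8 ± 6.17 and 20.7 ± 2.31 (SD, n = 3 mice each), a log2 fold change of 0.46 ± 0.28 (SE, Tln1∆MC over WT, limma adjusted p = 0.87). *Fosb* was at 17.1 to 22.8 over the 6 mice, a span of 1.33-fold, with 20.5 ± 2.98 in WT and 19.96 ± 2.16 in Tln1∆MC MCs (SD, n = 3).

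*Jun* and *Jund* held the highest levels of the 10. *Jun* was at 32.0, 24.2 and 40.1 in WT mice 1, 2 and 3 and at 30.2, 33.2 and 40.8 in Tln1∆MC mice. *Jund* was at 26.2, 38.5 and 45.3 in WT mice and at 30.9, 25.2 and 38.9 in Tln1∆MC mice, so that the genotypes overlapped. Since 1 tag is counted per transcript, these levels need no correction for transcript length. *Junb* was lower, with 15.5 ± 3.17 in WT and 19.5 ± 4.49 in Tln1∆MC MCs (SD, n = 3), and its log2 fold change of 0.33 ± 0.24 (SE) had a limma adjusted p of 0.89. *Jun* and *Jund* had log2 fold changes of 0.13 ± 0.24 and −0.20 ± 0.26 (SE).

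Of the zinc finger genes, *Egr1* was at 11.0 to 18.9 and *Egr2* at 0.451 to 2.23 over the 6 mice. *Egr2* was the scarcest of the 10 and Tln1∆MC mice 3 and 2 gave its lowest and highest values. *Ier2* was at 1.37 to 3.79.

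The 2 genes whose products limit signalling were at intermediate levels. *Dusp1* was at 11.6, 6.73 and 6.87 in WT mice 1, 2 and 3 and at 10.3, 8.59 and 9.71 in Tln1∆MC mice. *Zfp36* was at 9.37, 8.45 and 14.6 in WT mice and at 10.5, 12.7 and 10.3 in Tln1∆MC mice. The Tln1∆MC mice lay within the span of the WT mice for both genes.

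**Figure D1:**
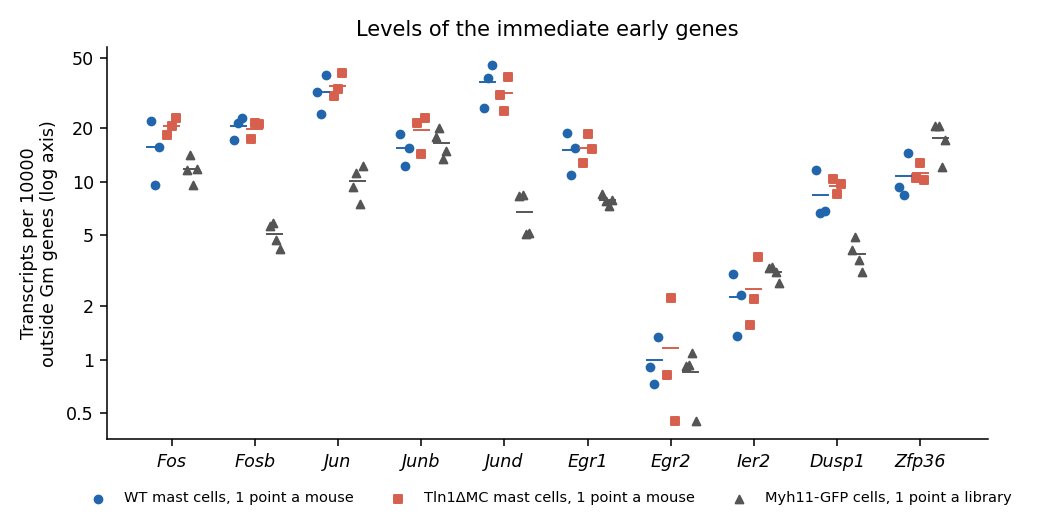
Transcripts per 10000 outside Gm gene models (log axis) of each IEG, with 1 point for each WT mouse (circles), each Tln1∆MC mouse (squares) and each Myh11-GFP library (triangles), and the mean of each group as a line. The genotypes overlap for all 10 genes, and *Fosb*, *Jun*, *Jund*, *Egr1* and *Dusp1* are higher in every mouse than in every Myh11-GFP library.

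Over all 10 IEGs, 0 passed an adjusted p of 0.05 and 0 had an unadjusted p under 0.05 (limma, 3 against 3 mice), where 0% and 5.78% of the 8601 genes tested did. The values of the genotypes overlapped for all 10, and 11.6% of the genes tested had no overlap. The log2 fold change was above 0 for 7 and below 0 for 3, with a median of 0.11 beside −0.03 over all genes, and adjusted p-values lay between 0.87 and 0.99. The SE was between 0.20 and 0.49, so that 3 mice per genotype leave differences of this size undecided.

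**Figure D2:**
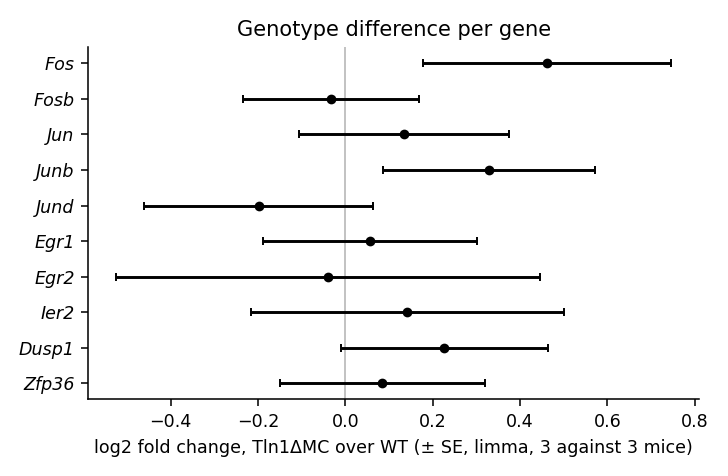
Log2 fold change of each IEG in Tln1∆MC over WT MCs (x axis), with the SE from limma on 3 against 3 mice as bars. *Fos* lies farthest from 0 (0.46), and no gene passed the adjusted test.

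The barcodes of each table that held no sorted cell had 2 kinds of profile, 1 shared by WT mouse 1 and Tln1∆MC mouse 1 (r = 0.66 between libraries) and 1 by the other 4 mice (r = 0.71 to 0.73 between mice), with r of 0.50 to 0.52 between the kinds. The genotype difference was therefore also taken within each set of mice. *Fos* differed by −0.26 on the log2 scale between the mice numbered 1 and by 0.82 between the means of the other mice. *Ier2* differed by −0.96 and 0.69, *Egr1* by −0.58 and 0.37, and *Jund* by 0.24 and −0.42. The first set has 1 mouse of each genotype, so the differences within it have no replicate. *Junb* was higher in Tln1∆MC MCs in both sets, by 0.20 and 0.40, and so was *Zfp36*, by 0.17 and 0.04. *Fosb* differed by 0.03 and −0.06, *Jun* by −0.08 and 0.24, *Egr2* by −0.15 and 0.01 and *Dusp1* by −0.17 and 0.43.

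The spread between single libraries of a mouse was set beside the spread between mice of a genotype. Each mouse value sums several libraries, so these SDs are not on an equal footing. How much of the spread between mice comes from libraries was not tested. For *Fos* the SD on the log2 scale was 0.46 between libraries of a mouse and 0.44 between mice of a genotype, and for *Dusp1* it was 0.43 and 0.33. *Jund* had 0.26 and 0.36, and *Ier2* had 0.32 and 0.62. In library 8 of Tln1∆MC mouse 3, 8 of the 10 IEGs were below all 9 other libraries of that mouse, for example *Fos* at 10.7 against 18.05 to 33.5 and *Junb* at 10.7 against 20.4 to 36.9. The summed MC markers were also lower in this library, at 322 against 630 to 756. The share of all genes below the 9 other libraries was not taken. The largest barcode of this library had 48.3 IEG transcripts per 10000 beside 291 of keratinocyte and 27.8 of MC markers. Without the barcodes of 50000 transcripts or more, *Fos* was at 20.6 in this library, *Jund* at 39.6 and *Egr1* at 16.3, and *Junb* (19.3) was the 1 IEG still below the 9 others. Without this library and library 3 of WT mouse 2, 0 genes and 0 IEGs passed the adjusted test (547 genes at an unadjusted p under 0.05).

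**Figure D3:**
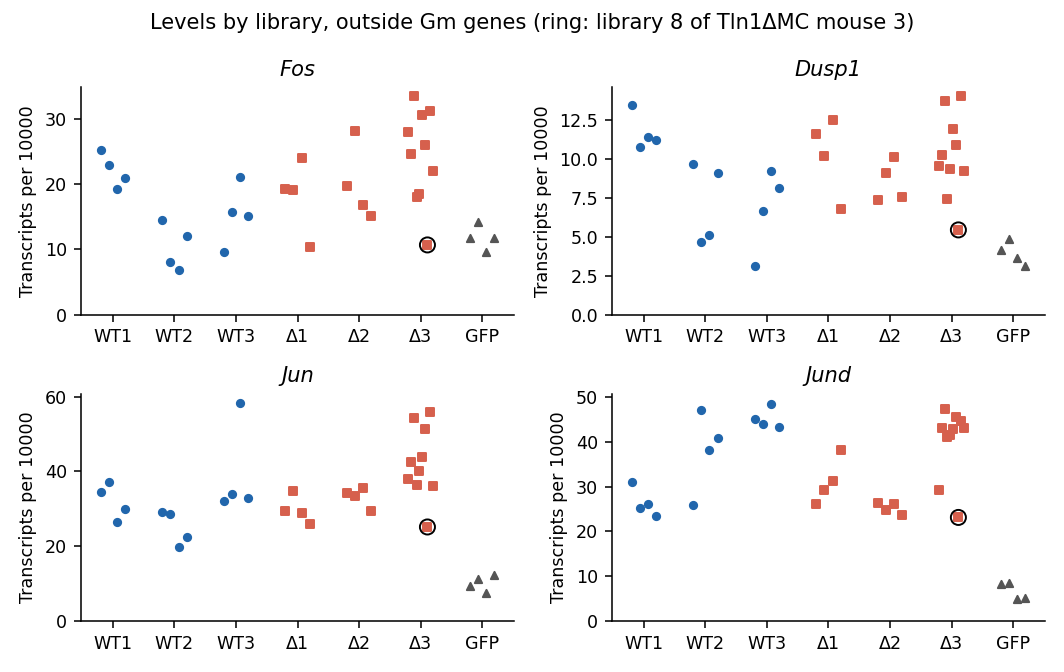
Transcripts per 10000 outside Gm gene models of *Fos*, *Dusp1*, *Jun* and *Jund* in each library, by WT mouse (WT1 to WT3), Tln1∆MC mouse (Δ1 to Δ3) and the 4 Myh11-GFP libraries (GFP). Libraries of 1 mouse span a wide range for *Fos* and *Dusp1*, and the ringed library lies below the other 9 libraries of its mouse in all 4 panels.

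To compare how many cells held each transcript, cells were thinned to 1000 unique molecular identifiers (UMIs) outside Gm models, which left 2195 MCs and 307 Myh11-GFP cells. *Jund* was found in 87.7% to 97.7% of the MCs of a mouse, *Jun* in 70.8% to 89.1% and *Fosb* in 70.0% to 84.7%. *Egr1* followed with 52.3% to 66.4% and *Junb* with 53.8% to 72.1%. *Zfp36* was found in 36.4% to 48.0%, *Fos* in 28.6% to 46.5% and *Dusp1* in 30.9% to 41.9%. *Ier2* was found in 10.8% to 27.0% and *Egr2* in 5.31% to 9.35% of the MCs of a mouse. *Fos* and *Fosb*, with like levels, thus differed in the share of MCs that held them. In unthinned cells *Fos* was found in 48.0% to 74.7% and *Jund* in 89.9% to 99.9%. No cell type of these data is known to lack IEGs. Barcodes that held no sorted cell, with a median of 136 transcripts, had a *Jund* transcript in 39.5%, a *Jun* transcript in 35.3% and a *Fos* transcript in 12.7%.

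The shares overlapped between the genotypes for all 10 IEGs. *Junb* had the largest difference, with 55.7%, 53.8% and 57.1% in WT mice and 72.1%, 53.9% and 68.8% in Tln1∆MC mice, a difference of 9.36 percentage points (exact two-sided permutation test over 6 mice, p = 0.30, adjusted p = 1 over 10 genes). The smallest p that 3 against 3 mice allow is 0.10.

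A thinned MC held a median of 5 of the 10 transcripts in each of the 6 mice. Cells without any of the 10 made up 0% to 0.833% of the MCs of a mouse, and cells with 8 or more made up 11.5% to 20.8%. The summed IEG level of a cell at the 90th percentile was 4.74 to 8.96 times that at the 10th percentile within a mouse, and its median was 93.1 to 153 per 10000. The Myh11-GFP cells spread more widely, with a median of 3 of the 10, with 11.7% of cells without any and 5.21% with 8 or more. Their 10th and 90th percentiles of the summed level were 5.49 and 187 per 10000.

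**Figure D4:**
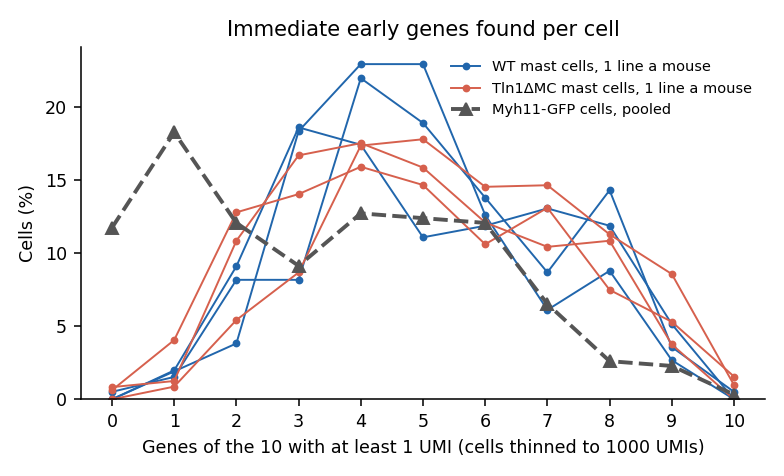
Share of cells (y axis, %) by how many of the 10 IEGs had at least 1 UMI after thinning to 1000 UMIs (x axis), with 1 line for each WT and Tln1∆MC mouse and a dashed line for the pooled Myh11-GFP cells. MCs of all 6 mice centre on a median of 5, and 11.7% of the Myh11-GFP cells held none of the 10.

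MCs with a *Fos* transcript more often held the transcripts of most other IEGs. *Dusp1* was found in 49.3% to 67.0% of the *Fos*-positive and in 20.6% to 27.8% of the *Fos*-negative thinned MCs of a mouse, a mean difference of 33.5 ± 7.02 percentage points (SD, n = 6 mice). *Zfp36* was found in 53.8% to 67.1% and 23.8% to 37.3%, and *Junb* in 63.2% to 88.8% and 42.9% to 62.3%. For these 3 genes, *Jun* and *Ier2* the share was higher in *Fos*-positive cells of 6 of 6 mice. *Jund* was found in 85.8% to 98.6% of the *Fos*-positive and 88.7% to 98.4% of the *Fos*-negative MCs, with the higher share in *Fos*-positive cells in 2 of 6 mice. With *Jund* in 87.7% to 97.7% of all thinned MCs of a mouse, there was little room for a higher share. In Myh11-GFP cells, of which 44.0% held *Jund*, it was found in 62.3% of 114 *Fos*-positive and 33.2% of 193 *Fos*-negative cells. The shares of the MCs and Myh11-GFP cells are therefore not directly comparable.

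The same was seen in correlations of the log2 levels across cells, taken within each mouse and averaged over 6 mice. They are a description of the cells of a mouse pooled over its libraries, which differ in depth unless thinned. The closest pairs in MCs were *Fos* and *Dusp1* (mean r = 0.56, range 0.47 to 0.68), *Dusp1* and *Zfp36* (0.54, 0.47 to 0.65) and *Fos* and *Jun* (0.53, 0.41 to 0.65), and *Fos* and *Zfp36* reached 0.52. *Junb* and *Ier2* were closest to *Dusp1* (0.52) and *Fos* (0.40), *Egr1* to *Jun* (0.45), *Egr2* to *Egr1* (0.29) and *Fosb* to *Junb* (0.37). In thinned cells *Egr1* was closest to *Junb* (0.36) and *Fosb* to *Jun* (0.24). Of the 45 pairs, 40 were above 0 in all 6 mice, and 35 were in thinned cells. All 28 pairs without *Jund* and *Egr2* were among the 35. The median over all pairs of 2747 genes found in at least 10% of the cells of each mouse was 0.04. The share of these pairs above 0 in all 6 mice was not taken.

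*Jund* and *Egr2* had the lowest mean r to the other 9 in MCs. It was 0.09 for *Jund* (range over mice 0.01 to 0.16), with its highest value to *Fosb* (0.26), and 0.14 for *Egr2* (range 0.08 to 0.29, 0.10 in thinned cells). These ranges overlapped, and the other 8 genes had means of 0.26 to 0.37. The range of *Egr2* also overlapped those of other IEGs, for example *Fosb* (0.20 to 0.34) and *Ier2* (0.22 to 0.37). In thinned cells the range was 0.05 to 0.18 for *Egr2* and −0.02 to 0.12 for *Jund*. It was 0.11 to 0.27 for *Fosb* and 0.12 to 0.23 for *Ier2*. In Myh11-GFP cells the mean r of *Jund* was 0.45 and its closest gene *Junb* (0.68), while *Egr2* had 0.25. Thinned to equal depth, the values of *Jund* were 0.05 in MCs and 0.22 in Myh11-GFP cells. Of the 9 *Jund* pairs, 8 were above the highest of the 6 mice before thinning and 6 after it. Over all 45 pairs, 24 and 12 were above every mouse, and 1 and 8 were below every mouse. The share of pairs of all genes above or below every mouse was not taken. The number of Myh11-GFP mice is unknown, so the difference in *Jund* between MCs and Myh11-GFP cells was not tested.

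Over all 45 pairs the mean r was 0.24 to 0.35 in the MCs of a mouse and 0.44 in Myh11-GFP cells. At equal depth these were 0.16 to 0.24 and 0.25, a smaller gap. The pairs differed in order, given here for unthinned cells. In Myh11-GFP cells *Zfp36* and *Junb* (0.68), *Jund* and *Junb* (0.68) and *Fosb* and *Junb* (0.63) led, followed by *Junb* and *Egr1* and by *Fos* and *Egr1* (both 0.62), whereas *Fos* and *Dusp1* were at 0.36, below all 6 mice. *Fos* and *Egr1* were at 0.30 in MCs. *Junb* was the closest gene of *Fosb*, *Jund*, *Egr1*, *Ier2*, *Dusp1* and *Zfp36* in Myh11-GFP cells, while *Jun* was closest to *Fos* (0.46) and *Egr2* to *Ier2* (0.35). At equal depth *Junb* stayed closest only for *Jund* (0.36) and *Zfp36* (0.60). *Fosb* (0.39), *Ier2* (0.31), *Dusp1* (0.26) and *Egr2* (0.22) were then closest to *Zfp36*, and *Egr1* to *Fos* (0.53). *Fosb* and *Junb* fell to 0.31.

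**Figure D5:**
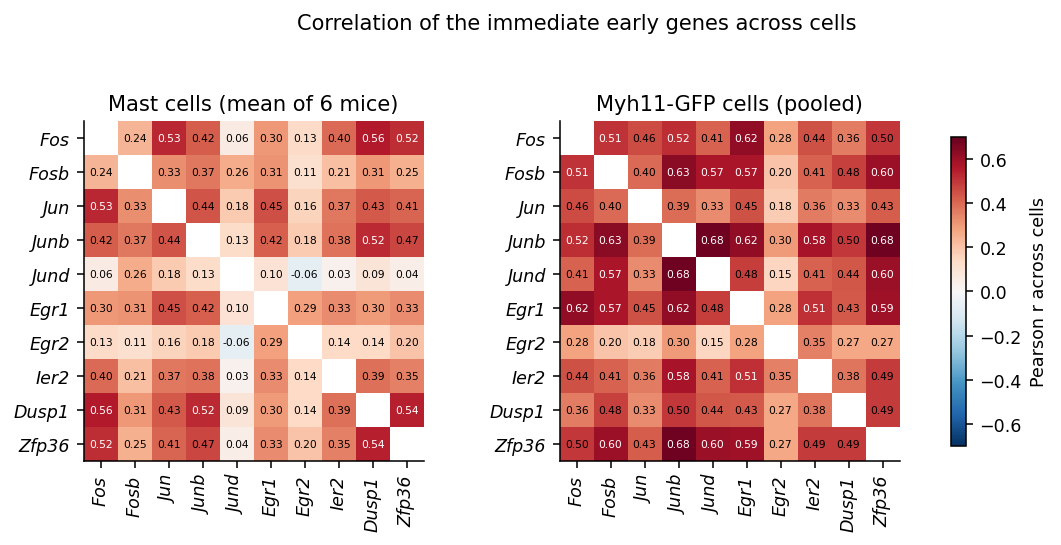
Pearson r between the log2 levels of 2 IEGs across cells (colour and number), as the mean of 6 mice for MCs and over the pooled Myh11-GFP cells. The *Jund* row is close to 0 in MCs (mean 0.09) and not in Myh11-GFP cells (mean 0.45).

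The IEGs were next set beside their levels in Myh11-GFP cells, a sort in which none of the MC markers was abundant. *Fosb*, *Jun*, *Jund*, *Egr1* and *Dusp1* were higher in each of the 6 mice than in each of the 4 libraries, where 22.0% of 9345 genes were, and no IEG was lower throughout, where 18.5% of genes were. *Jund* had the largest ratio, with a mean of 34.1 ± 8.02 per 10000 over 6 mice (SD) and 7.03 in the pooled Myh11-GFP cells (95% exact Poisson interval 6.61 to 7.48, counting error only), a ratio of 4.85. The 4 libraries held 8.35, 8.49, 5.07 and 5.15. *Fosb* followed with a ratio of 3.86 and *Jun* with 3.42, against pooled levels of 5.23 (4.87 to 5.62) and 9.78 (9.27 to 10.3). *Dusp1* and *Egr1* had ratios of 2.23 and 1.93.

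*Zfp36* went the other way, with 20.5, 20.6, 12.2 and 17.1 in the 4 libraries and 8.45 to 14.6 in the mice, and library 15 alone fell within the span of the mice. *Ier2* was at 2.71 to 3.31 in the libraries and 1.37 to 3.79 in the mice. *Junb* (13.5 to 20.01), *Fos* (9.61 to 14.2) and *Egr2* (0.451 to 1.09) overlapped with the mice. In MCs the order of the means was *Jund*, *Jun*, *Fosb*, *Fos*, *Junb*, *Egr1*, *Zfp36*, *Dusp1*, *Ier2* and *Egr2*, and the neighbours *Jund* and *Jun*, *Fosb* and *Fos*, *Fos* and *Junb*, and *Junb* and *Egr1* differed by less than their SD over mice. In pooled Myh11-GFP cells *Zfp36* (17.8) and *Junb* (16.8) led, followed by *Fos* (11.8) and *Jun* (9.78), while *Fosb* (5.23) and *Dusp1* (4.03) were among the lower values. With Gm models kept in the total the ratios were lower, at 3.42 for *Jund*, 2.68 for *Fosb* and 1.31 for *Egr1*, and the groups overlapped for *Egr1* and *Dusp1* but not for *Zfp36*. Without WT mouse 2, *Fos* was also higher in every mouse.

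Within the Myh11-GFP libraries, cells were split at the library's median of *Acta2*, a smooth muscle actin gene. The upper part held 2.62 to 6.02 times the *Myh11* level and 0.119 to 0.269 times the fibroblast marker level of the lower part. On sums over cells, *Fosb*, *Egr1*, *Egr2* and *Dusp1* were lower in the upper part of all 4 libraries. Ratios were 0.425 to 0.943 for *Fosb*, 0.561 to 0.968 for *Egr1* and 0.521 to 0.881 for *Dusp1*. Across single Myh11-GFP cells the r with *Acta2* was small, at −0.004 for *Fosb*, 0.08 for *Egr1*, −0.06 for *Egr2* and −0.04 for *Dusp1*. *Egr2* had only 10 to 44 transcripts in a whole library. The share of all genes that were lower in all 4 was not taken, and the 4 libraries count as 1 sample. *Fos* was higher in 3 of 4, with ratios of 0.523 to 1.86, and *Zfp36* in 1 of 4. The part of the fibroblast-marked cells in these ratios was not tested.

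Genes outside the 10 were ranked by their correlation with the summed IEG level. In MCs, over 2737 genes, the highest were *Tnfaip3* (mean r = 0.46 over 6 mice, range 0.36 to 0.52), which encodes the NF-κB inhibitor A20, and *Klf6* (0.45, 0.35 to 0.60). *Klf2*, *Rgs2*, *Nr4a1*, *Ppp1r15a*, *Nfkbid*, *Hes1*, *Rhob* and *Nfkbiz* followed, with mean r of 0.41 down to 0.33. The median gene had 0.01. In Myh11-GFP cells, over 3489 genes and 4 libraries, *Nr4a1* was highest (0.69, range 0.52 to 0.76), followed by *Btg2*, *Mt1*, *Nfkbia*, *Gadd45b*, *Adamts1*, *Cebpb*, *Nfkbiz*, *Mt2* and *Id3*, the last at 0.60. *Nr4a1* and *Nfkbiz* were in both lists of 10. The metallothionein gene *Mt1* had a mean r of 0.66 in Myh11-GFP cells and 0.01 in MCs, and *Klf6* had 0.15 and 0.45. *Btg2*, *Id3* and *Adamts1* were close to absent from MCs, at most 0.480, 0.489 and 0.933 per 10000 in any mouse beside at least 6.91, 17.98 and 15.5 in the Myh11-GFP libraries.

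Lists of related genes gave no call between the genotypes (0 higher and 0 lower at an adjusted p of 0.05 in each, limma). Of 20 other IEGs, 18 were tested, with a median log2 fold change of −0.06. *Klf6* (16.0 to 26.3 per 10000 over 6 mice) and *Nr4a1* (12.6 to 20.9) had the highest levels. Of 14 upstream regulators, 13 were tested, with a median of 0.01. *Mapk14*, which encodes the kinase p38α, was at 0.972 to 1.41 and had a mean r of 0.03 with the IEGs. Of 11 feedback inhibitors, 8 were tested (median 0.07). *Zfp36l1*, a paralog of *Zfp36*, was at 1.99 to 4.13 in the mice and 11.5 to 15.2 in the Myh11-GFP libraries, and *Spred1* was at 2.50 to 3.18 in the mice.

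Of 12 effector genes of activated MCs, 11 were tested (median log2 fold change 0.10). The chemokine genes *Ccl7* (17.0 to 27.8 per 10000) and *Ccl2* (4.09 to 9.56) were the most abundant, and followed the IEGs across cells with a mean r of 0.25 and 0.31. Of 11 dimer partners and related bZIP genes, 10 were tested (median −0.11). *Atf4* was at 5.13 to 8.00 and *Jdp2* at 0.790 to 1.44, with a mean r to the IEGs of 0.23 and 0.03. Of 9 heat shock genes, 8 were tested (median −0.13). *Hsp90ab1* and *Hsp90aa1* were the most abundant, at 13.01 to 17.99 and 9.24 to 16.3.

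Quality measures moved weakly with the summed IEG level in MCs, and more with some single IEGs. The summed level had a mean r of 0.07 with the depth of a cell (range over mice −0.14 to 0.29), −0.14 with its Gm share (−0.34 to 0.02), −0.17 with its mitochondrial share (−0.28 to −0.12) and 0.20 with the summed heat shock genes (0.05 to 0.31). In Myh11-GFP cells these were 0.18, −0.06, −0.39 and 0.42. For single IEGs in MCs the mean r with depth ran from −0.04 (*Jund*) to 0.32 (*Junb*, range over mice 0.07 to 0.52). *Fosb* had 0.30, *Dusp1* 0.27 and *Zfp36* 0.24. With the Gm share it ran from −0.28 (*Fosb*) to −0.04 (*Jun*), and with the mitochondrial share from −0.27 (*Fosb*) to −0.06 (*Egr2*). All MCs passed through digestion, so their level before dissociation cannot be told apart from that after it.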

How the data were processed

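Sorted cells were profiled by mCEL-Seq2, a 3′ single-cell RNA-seq method, in libraries of 96 cells (34 libraries). Per the labels and methods, the authors demultiplexed reads with bcl2fastq 2.17.1.14, aligned them with BWA 0.6.2-r126 to mm10 gene models, discarded reads of several loci, and turned UMIs of 6 bases into transcript numbers by binomial statistics. The deposited values, recorded under another unit, are these transcript counts per gene and cell, and are not whole. Each table also listed 96 barcodes that were not in use.

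Barcodes entered if they exceeded 1000 transcripts with *Kcnq1ot1* at 2% or less, a limit that removed 0 cells. No cells of different libraries were identical. The mouse was read from the number in the title. Levels exclude models named Gm plus a digit. Genotypes were tested by limma-trend (limma 3.58.1, R 4.3.3) on log2(transcripts per 1000000 + 1) of sums per mouse, for genes with 10 or more transcripts in 3 or more mice, with Benjamini-Hochberg adjustment at 0.05. The fit was tested on simulated data. Shares of cells were compared by exact permutation over mice. Intervals cover counting error only.

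The IEGs, lists and tests were chosen with earlier results of these data known. Besides the IEGs, the text names the 2 most abundant tested genes of each list (1 gene is not reported here), the 10 genes most correlated with the IEGs, *Tln1*, and, after their values were seen, *Myh11*, *Acta2* and the 3 start regions. *Ier2* and *Egr1* start regions were not analysed here. Alternatives are given in the closing section.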

Additional observations from a re-analysis of the deposited data

Results flagged for a closer look

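Within the libraries of a mouse, or of the Myh11-GFP sort, 70 sets of values (10 genes in 7 sets) were examined for a library far from the others by Dixon's criterion, and 5 stood out, where chance flags about 1 in 20. *Zfp36* was at 10.8 per 10000 in library 13 of WT mouse 1, with the nearest other library at 9.06. *Jun* was at 58.2 in library 3 of WT mouse 3, with the nearest at 34.1. *Egr2* was at 1.12 in library 1 of WT mouse 2 (nearest 0.672) and at 1.95 in library 2 of Tln1∆MC mouse 1 (nearest 0.473). *Egr1* was at 8.04 in library 8 of Tln1∆MC mouse 3, with the nearest of the other 9 at 14.8, and this is the library rich in keratinocyte markers. Without its barcodes of 50000 transcripts or more, *Egr1* was at 16.3 there.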

How the results depend on the processing

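No IEG passed the adjusted genotype test under any alternative run, and the lowest adjusted p of an IEG in any was 0.32 (limma, without WT mouse 1). Keeping Gm models in the total moved the median of all genes by 0.22 and that of the IEGs to 0.34, called 45 genes of which none was an IEG, and turned *Fosb* (0.19), *Jund* (0.029) and *Egr2* (0.18) to values above 0. TMM factors turned *Fosb* (0.019) and *Egr2* (0.012), and the restriction to cells with *Cpa3* and few other markers turned *Egr1* (−0.024). A block for the 2 sets of mice called 2 genes. Same-numbered mice did not deviate together (r = 0.16, −0.21 and −0.27 for mice 1, 2 and 3), and a replicate block called 0 genes. Leaving out 1 mouse or 1 library at a time called 0 to 16 genes (16 without library 3 of Tln1∆MC mouse 1, 15 without that mouse, 1 without WT mouse 1), and the median log2 fold change of the IEGs lay between −0.064 (without WT mouse 2) and 0.20. Over the same alternatives *Fos* ranged from 0.15 (without WT mouse 2) to 0.74 (without WT mouse 1), *Junb* from 0.17 (without WT mouse 2) to 0.53 (without Tln1∆MC mouse 2), *Jund* from −0.42 (without WT mouse 1) to −0.027 (without WT mouse 3) and *Dusp1* from 0.090 (without WT mouse 2) to 0.48 (without WT mouse 1). *Fosb* ranged from −0.16 to 0.060, *Jun* from −0.056 to 0.31, *Egr1* from −0.16 to 0.24, *Egr2* from −0.66 to 0.48, *Ier2* from −0.20 to 0.43 and *Zfp36* from −0.072 to 0.32. The mean correlation of the IEGs in MCs was 0.29, 0.21 in thinned cells and 0.39 with Gm in the total, and in Myh11-GFP cells it was 0.44 and 0.25 in thinned cells. The differences in the share of cells, in percentage points, turned sign without thinning for *Fosb* (4.51), *Jund* (1.54), *Egr1* (2.77), *Egr2* (1.59) and *Ier2* (6.82), with at least 2 UMIs for *Jun* (−1.18), *Egr1* (0.281) and *Ier2* (1.48), and with 500 UMIs for *Jun* (−1.47) and *Ier2* (2.65). The causes were not tested. The barcode and library alternatives (barcodes in use, cells under 50000 transcripts, both libraries left out) were chosen after seeing the data. The planned edgeR and DESeq2 fits were not run, because the tables were not recorded as counts.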
